A study of Mus musculus with 14 samples.

Results

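Serpins are a family of proteins that mostly inhibit proteases, and 10 of their genes that brain cells express are described here in the hippocampus of WT mice and of 3 lines that lack the estrogen receptor GPR30. The genes were taken by name. They are Serpina3n, Serpini1, Serpine2, Serping1, Serpind1, Serpinf1, Serpinh1, Serpinb6a, Serpinb1a and Serpinb9. They make up 10 of the 68 genes in the table of 55450 genes whose name begins with Serpin. All 10 passed the filter on low values, an FPKM (fragments per kilobase of transcript, scaled to the mapped fragments of the library) of at least 0.5 in at least 3 of 14 libraries, as did 14 other serpin genes.

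Poly(A) RNA was sequenced from the hippocampus of female mice of 10 weeks, all on a C57BL/6J background, with 4 AG-KO, 4 NG-KO, 3 Δ3102 and 3 WT libraries. Δ3102 mice carry a CRISPR/Cas9 deletion of the GPR30 gene, Gper1, in every cell. AG-KO mice (GPR30 fl/fl;GFAP-Cre) lose it where the promoter of the astrocyte gene GFAP drives Cre, and NG-KO mice (GPR30 fl/fl;NSE-Cre) where the promoter of neuron-specific enolase does. The 3 WT libraries, without floxed alleles or Cre, were the controls for all lines. Mice with Cre alone or floxed alleles alone were not analysed here, so the loss of the receptor, the Cre transgene, the floxed alleles and other differences between the lines cannot be told apart. No source used here states whether mice were pooled, and the p-values measure the spread between these libraries, which may be technical.

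An inhibitory serpin offers a flexible loop as bait, and the protease that cuts the loop is trapped in a covalent complex. In brain, serpins secreted by neurons and glia hold plasminogen activators, thrombin and proteases of the complement cascade in check, whereas serpins of clade B act inside cells and a few members inhibit no protease. Serpina3n, an inhibitor of serine proteases such as cathepsin G and granzyme B, is known as a gene that reactive astrocytes raise, and the study followed it together with the ubiquitin ligase gene Pja1 as a candidate link between astrocytic GPR30 and memory.

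The libraries held 44527024 to 62669865 counts. Gper1 was at 0.797 to 3.05 FPKM in WT and at 0.0124 to 0.145 FPKM in Δ3102 libraries. It was at 0.540 to 1.38 FPKM in AG-KO and at 0.975 to 1.41 FPKM in NG-KO libraries, which overlap WT, so RNA of the whole tissue did not show the cell-restricted deletions. Markers of liver cells were present in unequal amounts, and the albumin gene Alb was at 126 to 167 FPKM in WT, 1.11 to 189 FPKM in Δ3102, from listed at 0 to 44.8 FPKM in AG-KO and 2.00 to 55.8 FPKM in NG-KO libraries. Δ3102 replicate 1 stood apart in choroid plexus markers, with a summed FPKM of 1437 against 5.55 to 243 in the other libraries. Skeletal muscle markers were as uneven, with sums of 16.4 to 314 FPKM in WT, 279 to 395 FPKM in Δ3102, 4.002 to 148 FPKM in AG-KO and 7.07 to 129 FPKM in NG-KO libraries, and testis markers summed to 0.140 to 165 FPKM in these female mice.

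The upstream sequences of a pair of the genes are shown because their FPKM did not overlap between AG-KO and NG-KO libraries, as described further on. They are the 250 bases before the RefSeq start of Serpina3n, chr12:104406458-104406707 on the plus strand, and of Serpinh1, chr7:99353240-99353489 on the minus strand, in GRCm38.p6. The bases just after the RefSeq start matched a GENCODE vM21 transcript of the gene for Serpinh1 but not for Serpina3n. In the deposited data Serpina3n starts at base 104406729. Capitals mark a GC box (GGGCGG or its reverse complement), the site known for the factor Sp1.
Serpina3n: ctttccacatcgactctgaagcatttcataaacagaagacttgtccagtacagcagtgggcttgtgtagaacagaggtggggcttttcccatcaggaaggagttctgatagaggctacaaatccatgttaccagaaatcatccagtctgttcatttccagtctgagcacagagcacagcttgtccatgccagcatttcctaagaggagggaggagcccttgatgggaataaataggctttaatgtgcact
Serpinh1: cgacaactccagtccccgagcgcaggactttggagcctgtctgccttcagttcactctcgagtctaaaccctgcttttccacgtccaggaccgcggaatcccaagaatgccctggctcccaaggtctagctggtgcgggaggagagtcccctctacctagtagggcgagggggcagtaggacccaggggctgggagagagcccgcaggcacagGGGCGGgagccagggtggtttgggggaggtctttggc
The Serpinh1 window held 1 GC box, and 32.74% of 32851 promoter windows of that length held one on either strand. The Serpina3n window held no GC box and none of the other letters searched on both strands, which were the STAT motif TTCNNNGAA (in 7.02% of windows), the half-site TGACG of cAMP response elements (17.77%), the AP-1 motif TGANTCA (6.75%), the heat shock pair GAANNTTC (6.69%), TATAAA (12.37%) and CCAAT (33.85%). The Serpinh1 window held none of these other letters either. G and C made up 46.4% of the Serpina3n window and 63.6% of the Serpinh1 window, beside a median of 52.4% over all windows. RefSeq windows were found for 8 of the 10 genes, all but Serping1 and Serpinb1a.

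Serpina3n had the highest mean FPKM of the 10 genes, 32.6 over 14 libraries, which was above 92.3% of the 18059 tested genes. Serpine2 followed with a mean of 23.0 FPKM and Serpini1 with 18.4 FPKM. Between libraries these 3 ranges overlapped, from 22.3 to 44.7 FPKM for Serpina3n, from 20.2 to 26.0 FPKM for Serpine2 and from 13.6 to 23.7 FPKM for Serpini1. A gap separated them from Serpinh1, with a mean of 9.19 FPKM and a highest library of 11.4 FPKM. Below it Serpinf1 (mean 6.03 FPKM), Serpinb6a (6.02 FPKM), Serping1 (4.82 FPKM), Serpinb1a (3.48 FPKM), Serpinb9 (2.96 FPKM) and Serpind1 (2.08 FPKM) formed a series in which each gene's range overlapped the next. Serpina3n was first and Serpine2 second in each of the 4 genotypes, and the ranges of the pair did not overlap in Δ3102 and AG-KO mice. The spread over libraries differed as well, with a coefficient of variation of 8.15% for Serpine2 and 21.0% for Serpina3n against 43.3% for Serpind1 and 47.1% for Serpinb1a.

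**Figure D1:**
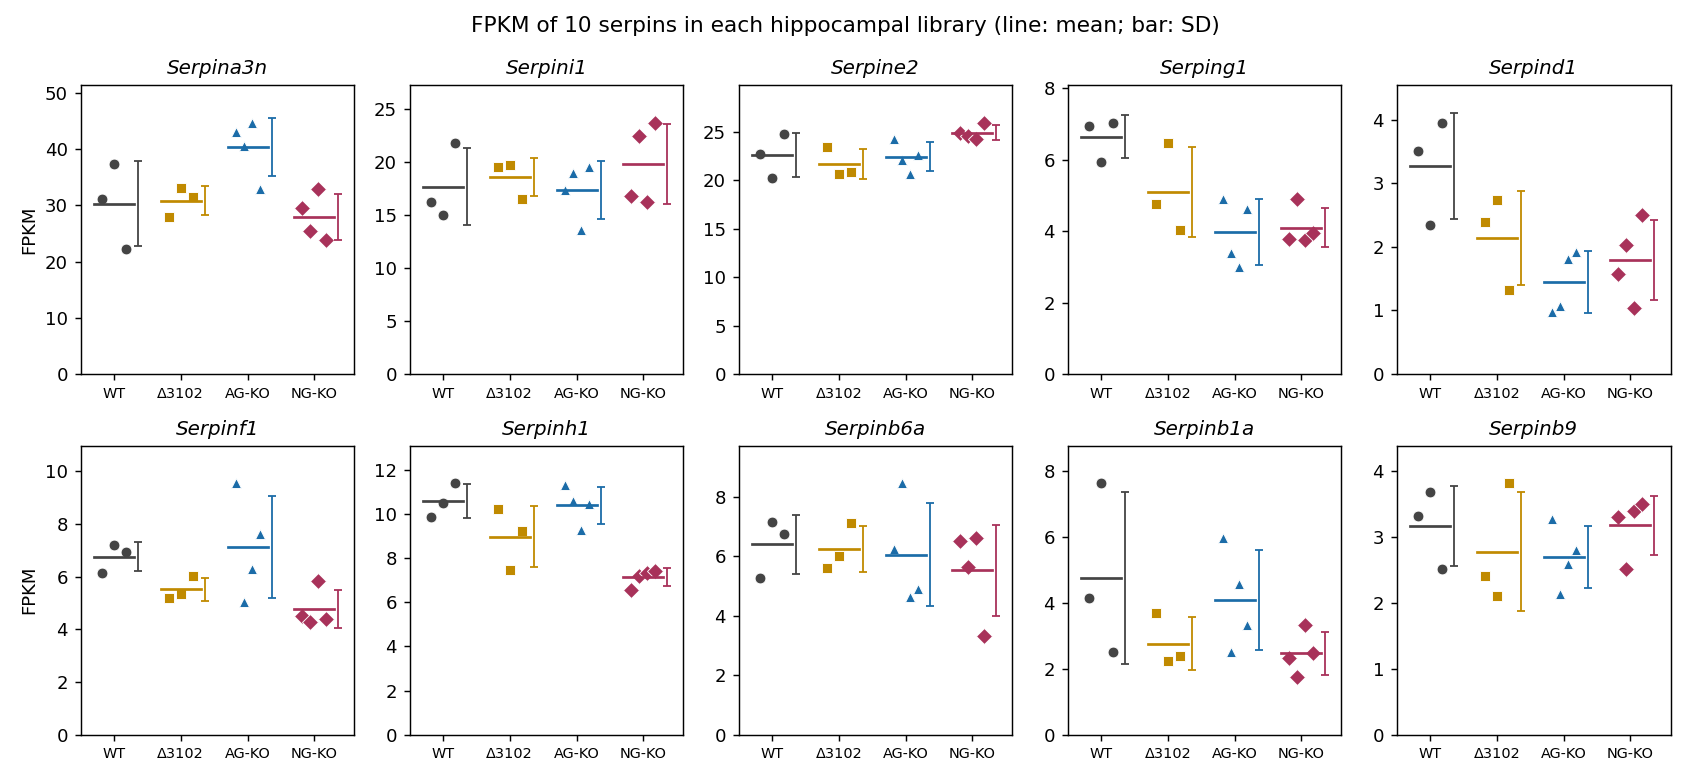
FPKM (y axis, from 0) of the 10 serpins in each library, by genotype (x axis: 3 WT, 3 Δ3102, 4 AG-KO and 4 NG-KO libraries). Points are libraries, horizontal lines are means and the bars beside them are SDs; AG-KO points lie above all NG-KO points for Serpina3n and Serpinh1, and below all WT points for Serping1 and Serpind1.

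No serpin of the 10 passed an adjusted p of 0.05 in edgeR's quasi-likelihood test in any comparison. The background was low as well. Of 18059 genes tested, 0.0111% were called in Δ3102 against WT mice, 0.0221% in AG-KO against WT mice, 0.072% in NG-KO against WT mice, 0.111% in AG-KO against NG-KO mice and 0.105% for any difference among the 4 genotypes. At an unadjusted p under 0.05 the 10 genes gave 0, 3, 5 and 3 in these comparisons in that order, beside 4.45%, 14.4%, 9.16% and 14.1% of all tested genes. For any difference among the genotypes it was 5 of 10 (Serpina3n, Serping1, Serpinh1, Serpinf1 and Serpind1) beside 12.5%. FPKM groups that did not overlap were seen for 1 of 10 genes in Δ3102 against WT mice (11.5% of tested genes), 2 of 10 in AG-KO (13.3%) and 3 of 10 in NG-KO against WT mice (10.9%), and 2 of 10 in AG-KO against NG-KO mice (6.77%). The comparisons against WT share the 3 WT libraries.

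**Figure D2:**
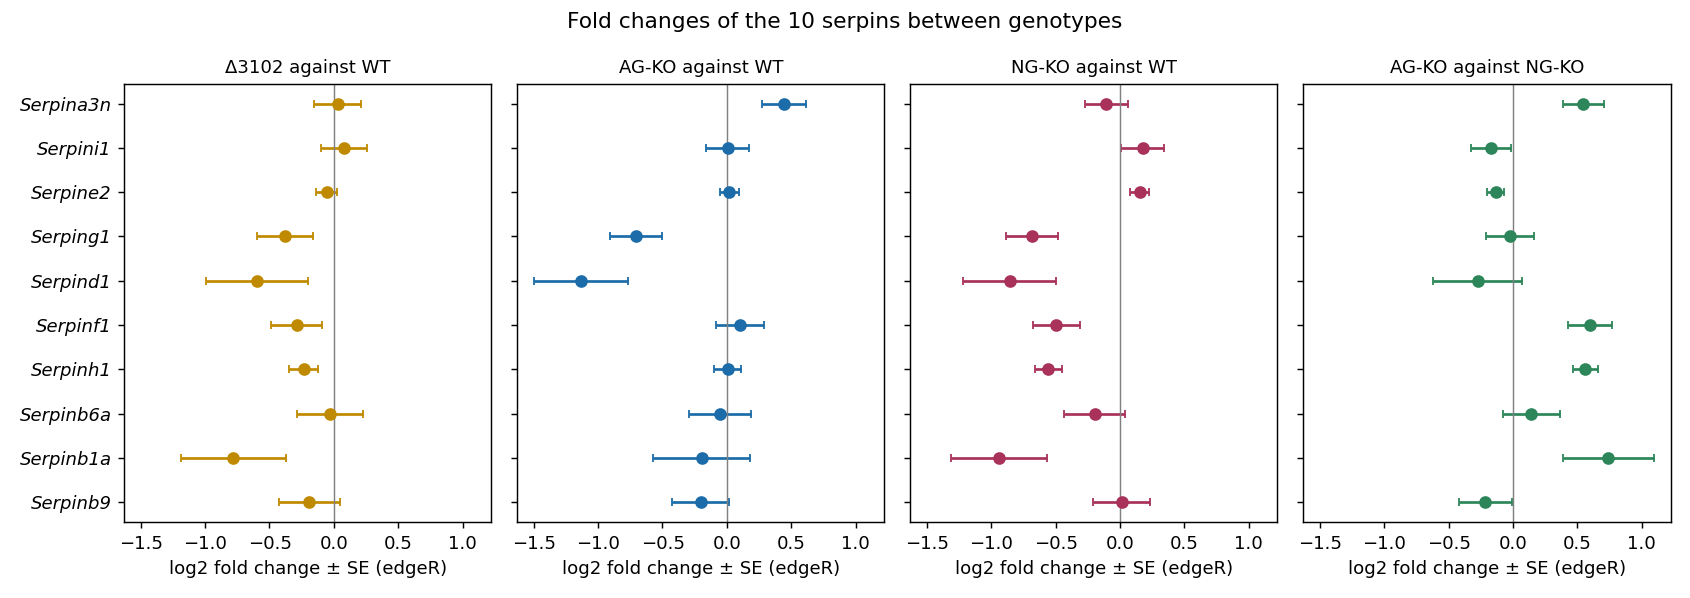
Log2 fold change (x axis) with its SE from edgeR for each of the 10 serpins (y axis) in 4 comparisons, 1 per panel, with a grey line at 0. The largest value against 0 in units of its SE is that of Serpinh1 in AG-KO against NG-KO mice, 0.56 with an SE of 0.10.

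Serpina3n was at 31.2, 37.3 and 22.3 FPKM in the 3 WT libraries and at 28.0, 33.1 and 31.4 FPKM in the 3 Δ3102 libraries. The AG-KO libraries had 43.1, 40.6, 44.7 and 32.9 FPKM and the NG-KO libraries 29.6, 25.4, 32.9 and 23.9 FPKM. Every AG-KO library was thus above every NG-KO library, by a narrow margin between AG-KO replicate 4 and NG-KO replicate 3, while WT mice overlapped all 3 lines. Means were 30.2 ± 7.54 FPKM in WT (SD, n = 3), 30.8 ± 2.59 FPKM in Δ3102 (n = 3), 40.3 ± 5.21 FPKM in AG-KO (n = 4) and 27.9 ± 4.08 FPKM in NG-KO mice (n = 4).

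The difference of means between AG-KO and NG-KO mice was 12.4 FPKM, with an exact two-sided permutation p of 0.0286, the smallest that 4 against 4 libraries allow, and 0.114 after Benjamini-Hochberg adjustment over the 4 comparisons made. In edgeR the same comparison gave a log2 fold change of 0.55 with an SE of 0.16, an unadjusted p of 0.00413 and an adjusted p of 0.171. Against WT mice, AG-KO mice were higher by 10.1 FPKM (exact permutation p = 0.114, with 0.0571 the smallest possible). The log2 fold change against WT was 0.44 (SE 0.17, edgeR adjusted p = 0.271). Without WT replicate 3, the lowest of its group, these differences were 6.10 FPKM (exact permutation p = 0.267) and 0.26 on the log2 scale (edgeR adjusted p = 0.504). Δ3102 mice differed from WT by a log2 fold change of 0.03 (SE 0.18, edgeR adjusted p = 0.9997) and NG-KO mice by -0.10 (SE 0.17, edgeR adjusted p = 0.899). In DESeq2 the AG-KO against NG-KO comparison passed, with an adjusted p of 0.0481. The adjusted p of this comparison ranged from 0.0481 to 0.418 over the 24 alternatives tried. Of the 75-base words in the Serpina3n transcripts, 1.46% also occur in Serpina3e-ps or Serpina3g, so reads there could be assigned to either gene.

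Pja1, a ubiquitin ligase gene, was at 45.9 to 61.4 FPKM in WT, 14.8 to 19.9 FPKM in Δ3102 and 14.7 to 27.4 FPKM in AG-KO libraries. NG-KO libraries had 57.2 to 61.9 FPKM apart from replicate 4, which had 24.96 FPKM and, at 23.9 FPKM, also the lowest Serpina3n of its group. Low Pja1 RNA therefore occurred beside Serpina3n RNA of 28.0 to 33.1 FPKM in Δ3102 and of 32.9 to 44.7 FPKM in AG-KO mice. It also occurred beside 23.9 FPKM of Serpina3n in NG-KO replicate 4. That library was thus within the Pja1 range of AG-KO and somewhat above that of Δ3102 libraries. Its Gper1, at 1.11 FPKM, was above all Δ3102 libraries, which reached 0.145 FPKM. Against WT and AG-KO mice the library's label could not be checked, since Gper1 overlapped between WT and both conditional lines. Without it the log2 fold change in AG-KO against NG-KO mice was 0.47 for Serpina3n (SE 0.17, edgeR adjusted p = 0.352), 0.58 for Serpinh1 (SE 0.11, edgeR adjusted p = 0.130) and 0.56 for Serpinf1 (SE 0.19, edgeR adjusted p = 0.345). The paper reports that PJA1 binds Serpina3n protein and proposes that PJA1 mediates its degradation. Serpina3n RNA does not measure that step. For the hippocampus the paper reports higher Serpina3n in Δ3102 and AG-KO mice and no change in NG-KO mice. Its main text does not name the measure used for these lines, so the FPKM values are not a like comparison. In immunoblots the paper found more Serpina3n protein after a virus deleted astrocytic GPR30. It found less when GPR30 was restored or PJA1 was raised after that deletion.

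Of the 8 reactive astrocyte markers tested of 12 listed, which include the intermediate filament genes Gfap and Vim, 4 were higher in AG-KO than in NG-KO mice at an unadjusted p under 0.05, none was lower and none passed at an adjusted p under 0.05 in edgeR, with a median log2 fold change of 0.41 beside -0.01 over all tested genes. Their summed FPKM ranged from 121 to 144 in AG-KO, 78.8 to 110 in NG-KO, 120 to 143 in WT and 104 to 116 in Δ3102 mice. Cd44 and Lcn2, the 2 of the 8 markers below 0, had log2 fold changes of -0.45 and -0.15. Against WT, the median over the 8 markers was 0.07 in AG-KO mice, with 1 higher and none lower at an unadjusted p under 0.05. In NG-KO against WT mice the median was -0.35, with 1 higher and 3 lower. Gfap itself had a log2 fold change of 0.45 in AG-KO against NG-KO mice (SE 0.13, edgeR adjusted p = 0.170). It was at 97.8 to 121 FPKM in AG-KO libraries and is also on the list of general astrocyte markers that follows. Of 9 general astrocyte markers, 3 were higher and none lower in AG-KO than in NG-KO mice at an unadjusted p under 0.05, with a median of 0.12 and a summed FPKM of 619 to 644 in AG-KO and 557 to 642 in NG-KO mice. Among them Aqp4, the water channel of astrocyte endfeet, had a log2 fold change of 0.49 (SE 0.09, edgeR adjusted p = 0.0597). In RNA of whole tissue, fewer cells of a type and less RNA per cell cannot be told apart. The part of these markers in the Serpina3n values was not tested.

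Genes of the STAT3 pathway, through which cytokines are known to raise acute phase serpins, did not pass at an adjusted p under 0.05 in any comparison. Of 7 genes tested, 2 were higher in AG-KO than in NG-KO mice at an unadjusted p under 0.05, namely Il6st (log2 fold change 0.44, edgeR adjusted p = 0.111), the shared receptor chain of the interleukin 6 family, and Stat3 (0.41, edgeR adjusted p = 0.160), and the median was -0.04. The 5 genes whose FPKM followed Serpina3n most closely over the 14 libraries, on the scale log2(FPKM + 0.1), were Serinc2 (Pearson's r 0.90), the pseudogene Cbx3-ps6 (0.89), Acan (0.89), Gpc1 (0.87) and Sec14l5 (0.86). These coefficients describe 14 libraries that share the genotype differences, and no test was made of them.

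Serpini1 encodes neuroserpin, the inhibitor of tissue plasminogen activator that neurons secrete. It was at 16.3, 15.0 and 21.8 FPKM in WT, 19.5, 19.7 and 16.6 FPKM in Δ3102, 17.4, 19.0, 13.6 and 19.6 FPKM in AG-KO, and 16.9, 22.5, 16.3 and 23.7 FPKM in NG-KO libraries. The 4 groups overlapped, and log2 fold changes lay between -0.17 and 0.18 with SEs of 0.15 to 0.18. The genes nearest to it in pattern were Trmt9b, Nap1l5 and Bend6, with r of 0.92 for each of them.

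Serpine2 encodes protease nexin-1, an inhibitor of thrombin and of plasminogen activators that glia secrete. Its FPKM was 22.7, 20.2 and 24.8 in WT, 23.5, 20.7 and 20.9 in Δ3102, 24.3, 22.1, 20.7 and 22.7 in AG-KO, and 24.9, 24.6, 24.3 and 26.0 in NG-KO libraries. It was the steadiest of the 10 genes. The NG-KO libraries were the most alike, at 24.9 ± 0.727 FPKM (SD, n = 4), and 1 AG-KO library reached their range. The log2 fold change was 0.15 in NG-KO against WT mice (SE 0.07, edgeR adjusted p = 0.565) and -0.14 in AG-KO against NG-KO mice (SE 0.07, edgeR adjusted p = 0.403).

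Of 19 listed proteases that these serpins are known to inhibit, 12 were tested and none passed at an adjusted p under 0.05 in edgeR, with 0, 1, 0 and 3 genes higher and 0, 3, 2 and 0 lower at an unadjusted p in the comparisons in the order used above. Plat, tissue plasminogen activator and the main target of neuroserpin, was at 7.15 ± 0.314 FPKM in WT (SD, n = 3) and 7.97 ± 0.796 FPKM in AG-KO mice (n = 4). Htra1, Klk8 and Prss12 had the highest FPKM of the list and log2 fold changes from -0.29 to 0.15. The 3 genes higher in AG-KO than in NG-KO mice were Klk6, Plat and Plau. Klk6 had the largest log2 fold change of these, 3.02 (SE 1.22, edgeR adjusted p = 0.289), at means of 1.11 FPKM in AG-KO and 0.134 FPKM in NG-KO mice. F2, C1ra and C1s1 were the 3 genes lower in AG-KO against WT mice, and Klk6 and C1ra the 2 lower in NG-KO against WT mice. Lrp1, the endocytic receptor that clears serpin complexes, had a log2 fold change of 0.38 in AG-KO against WT mice (edgeR adjusted p = 0.204).

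Serping1 encodes the C1 inhibitor, which blocks the first proteases of the classical complement cascade. It was at 6.95, 5.94 and 7.03 FPKM in WT and at 4.74, 6.47 and 4.02 FPKM in Δ3102 libraries. AG-KO libraries had 4.91, 3.38, 3.00 and 4.62 FPKM and NG-KO libraries 3.78, 4.91, 3.74 and 3.94 FPKM. All 8 libraries of the conditional lines lay below all WT libraries, and the conditional lines overlapped each other. Means were 6.64 ± 0.608 FPKM in WT (SD, n = 3), 3.98 ± 0.929 FPKM in AG-KO (n = 4) and 4.09 ± 0.549 FPKM in NG-KO mice (n = 4). The log2 fold change was -0.71 in AG-KO (SE 0.20, unadjusted p = 0.00385, edgeR adjusted p = 0.184) and -0.68 in NG-KO mice (SE 0.20, unadjusted p = 0.00483, edgeR adjusted p = 0.338) against WT. Between the conditional lines it was -0.02 (SE 0.19). By quantitative PCR the paper found Serping1, used there as an astrocyte marker, higher in hippocampi after a virus deleted astrocytic GPR30. That model, its controls and its measure differ from those of AG-KO against WT mice here, where Serping1 RNA was lower.

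The proteases that Serping1 blocks had low FPKM in this tissue. C1ra was at 1.51 ± 0.108 FPKM in WT (SD, n = 3), 0.691 ± 0.236 FPKM in AG-KO (n = 4) and 0.452 ± 0.264 FPKM in NG-KO mice (n = 4), with log2 fold changes of -1.09 (edgeR adjusted p = 0.271) and -1.73 (edgeR adjusted p = 0.256) against WT. The subunit genes C1qa, C1qb and C1qc, which microglia express, had means of 34.6, 31.2 and 15.5 FPKM in WT mice and were not lower in either conditional line at an unadjusted p under 0.05. Of the 8 classical complement genes tested, 1 was higher and 3 lower in AG-KO against WT mice at an unadjusted p under 0.05, and none passed at an adjusted p in edgeR. The lower genes were C3, C1s1 and C1ra, and the median of the list was -0.26 beside -0.01 over all tested genes. C3 is known to be made mainly in liver. In the same comparison 9 of 14 hepatocyte markers were lower at an unadjusted p, beside 14.4% of all tested genes in either direction, and their median was -3.82. Their sums were 413 to 488 FPKM in WT, 2.73 to 149 FPKM in AG-KO and 7.92 to 170 FPKM in NG-KO libraries. The part of liver RNA in the values of Serping1 and the complement genes was not tested.

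Serpind1 encodes heparin cofactor II, a thrombin inhibitor of plasma made mainly in liver. It was at 3.51, 2.34 and 3.95 FPKM in WT and at 2.39, 2.73 and 1.32 FPKM in Δ3102 libraries. AG-KO libraries had 0.973, 1.07, 1.81 and 1.92 FPKM and NG-KO libraries 1.58, 2.02, 1.04 and 2.51 FPKM. AG-KO libraries were all below WT, and 1 NG-KO library reached the WT range. The log2 fold change was -1.13 in AG-KO (SE 0.37, unadjusted p = 0.00859, edgeR adjusted p = 0.208) and -0.86 in NG-KO mice (SE 0.36, edgeR adjusted p = 0.503) against WT. With calls made at an unadjusted p under 0.05 and a ratio of mean FPKM above 2 or below 0.5 instead, Serpind1 in AG-KO against WT mice was the 1 call among the 10 genes, at a ratio of 0.442, beside 3.15% of all tested genes. In Δ3102 and NG-KO against WT and in AG-KO against NG-KO mice no serpin of the 10 was called under that rule, beside 1.17%, 2.0% and 2.31% of tested genes. The gene overlaps Pi4ka on the opposite strand, and whether the counting used strand is not given in the sources used here.

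Serpinf1 encodes pigment epithelium-derived factor, a secreted serpin that inhibits no protease and acts on vessels and neurons. It was at 6.14, 7.19 and 6.95 FPKM in WT and at 5.19, 5.33 and 6.03 FPKM in Δ3102 libraries. AG-KO libraries had 9.54, 5.04, 6.30 and 7.63 FPKM and NG-KO libraries 4.52, 4.29, 5.83 and 4.397 FPKM. WT libraries were above all Δ3102 and all NG-KO libraries, and AG-KO libraries overlapped every other group. The log2 fold change was -0.29 in Δ3102 (SE 0.20, edgeR adjusted p = 0.9997) and -0.49 in NG-KO mice (SE 0.18, edgeR adjusted p = 0.439) against WT. In AG-KO against NG-KO mice it was 0.60 (SE 0.17, unadjusted p = 0.00425, edgeR adjusted p = 0.173), and without AG-KO replicate 2, the lowest of its group, it was 0.74 with an edgeR adjusted p of 0.0371. Over the 24 alternatives the adjusted p of this comparison lay between 0.0371 and 0.366. Without AG-KO replicate 2, 297 of 18059 tested genes were called in it, against 20 with all libraries.

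Serpinh1 encodes HSP47, a chaperone of the endoplasmic reticulum that folds collagen and inhibits no protease. It was at 9.86, 10.5 and 11.4 FPKM in WT and at 10.2, 7.48 and 9.23 FPKM in Δ3102 libraries. AG-KO libraries had 11.3, 10.6, 9.27 and 10.4 FPKM, and NG-KO libraries had 6.54, 7.20, 7.33 and 7.44 FPKM. The NG-KO libraries lay below all WT, all AG-KO and all Δ3102 libraries, the nearest being Δ3102 replicate 2. Means were 10.6 ± 0.762 FPKM in WT (SD, n = 3), 8.97 ± 1.38 FPKM in Δ3102 (n = 3), 10.4 ± 0.839 FPKM in AG-KO (n = 4) and 7.13 ± 0.404 FPKM in NG-KO mice (n = 4).

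Of the 10 genes Serpinh1 had the smallest p in edgeR. In AG-KO against NG-KO mice the log2 fold change was 0.56 (SE 0.10, unadjusted p = 7.8e-05, edgeR adjusted p = 0.0563), a 1.48-fold difference. In NG-KO against WT mice it was -0.56 (SE 0.11, unadjusted p = 0.000157, edgeR adjusted p = 0.123), and in AG-KO against WT mice 0.00 (SE 0.11). The call depended on the setting. In AG-KO against NG-KO mice the adjusted p was 0.0470 with a filter of at least 1 FPKM, 0.000121 in DESeq2, 0.0305 without Δ3102 replicate 2 and 0.0354 without AG-KO replicate 2, and over all 24 alternatives it lay between 0.000121 and 0.178. Without AG-KO replicate 2, 297 of 18059 tested genes were called in that comparison, and in DESeq2 430, against 20 in the main fit. In NG-KO against WT mice DESeq2 gave an adjusted p of 0.00119.

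The collagens that HSP47 folds were described by 8 genes, of which 3 were higher in AG-KO than in NG-KO mice at an unadjusted p under 0.05 and none was lower, with a median log2 fold change of 0.40 beside -0.01 over all tested genes. They were Col4a1 (log2 fold change 0.44) and Col4a2 (0.42), the collagens of vessel basement membranes, and Col1a1 (0.71), a collagen of fibroblasts, with edgeR adjusted p of 0.265, 0.264 and 0.277. In NG-KO against WT mice the median of the 8 genes was -0.02, with 2 genes lower at an unadjusted p, while Serpinh1 was at -0.56. In AG-KO against WT mice the median was 0.25, with 3 genes higher and none lower, while Serpinh1 was at 0.00. Of 7 heat shock factor targets, 2 were higher and none lower in AG-KO against NG-KO mice at an unadjusted p, with a median of 0.18. Endothelial markers had 4 of 6 genes higher in AG-KO than in NG-KO mice at an unadjusted p, with a median of 0.44. Their median against WT was 0.28 in AG-KO mice, with 2 genes higher and none lower. In NG-KO against WT mice it was -0.06, with none higher and 1 lower. The endothelial sums were 33.0 to 49.9 FPKM in AG-KO, 27.1 to 31.4 FPKM in NG-KO, 31.5 to 40.3 FPKM in WT and 32.5 to 35.4 FPKM in Δ3102 mice. Fibroblast and meninges markers summed to 21.4 to 29.6 FPKM in AG-KO and 19.4 to 37.9 FPKM in NG-KO mice. The part of these cell types in the Serpinh1 values was not tested.

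Serpinb6a, an intracellular serpin that inhibits cathepsin G, was at 5.26 to 7.16 FPKM in WT, 5.59 to 7.11 FPKM in Δ3102, 4.63 to 8.45 FPKM in AG-KO and 3.33 to 6.62 FPKM in NG-KO libraries, and the groups overlapped. Serpinb9, the inhibitor of granzyme B, was at 2.51 to 3.69 FPKM in WT, 2.11 to 3.82 FPKM in Δ3102, 2.14 to 3.27 FPKM in AG-KO and 2.52 to 3.51 FPKM in NG-KO libraries, again with overlap. Their log2 fold changes lay between -0.22 and 0.14 in the 4 comparisons, with SEs of 0.21 to 0.26. Serpinb6a overlaps Nqo2 and Ripk1 on the opposite strand. Nearest in pattern were Socs4, Kcnk1 and Mrpl17 for Serpinb6a (r 0.86 to 0.90) and Smkr-ps, Wipi1 and Tmem232 for Serpinb9 (r 0.77 to 0.80).

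Serpinb1a, an inhibitor of neutrophil elastase, varied most between libraries. It was at 4.15, 7.61 and 2.50 FPKM in WT, 3.68, 2.23 and 2.39 FPKM in Δ3102, 5.96, 2.49, 4.57 and 3.31 FPKM in AG-KO, and 2.33, 1.74, 3.32 and 2.48 FPKM in NG-KO libraries. The groups overlapped in every comparison. The log2 fold change was -0.94 in NG-KO against WT (SE 0.37, unadjusted p = 0.0267, edgeR adjusted p = 0.475), -0.78 in Δ3102 against WT (SE 0.41, edgeR adjusted p = 0.9997) and 0.74 in AG-KO against NG-KO mice (SE 0.35, edgeR adjusted p = 0.367). WT replicate 2 weighed on the comparisons against WT, and the value for NG-KO mice was -0.42 with that library left out.

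The genes nearest to Serpinb1a in pattern were Cnp (r 0.97), Mag (0.94) and Mog (0.93), all myelin genes of oligodendrocytes, which gave the highest coefficient found for any of the 10 serpins. The summed FPKM of 7 oligodendrocyte markers was 397 to 912 in WT, 347 to 425 in Δ3102, 398 to 738 in AG-KO and 249 to 369 in NG-KO mice. Its highest library was WT replicate 2, which was also the highest for Serpinb1a, and its second highest AG-KO replicate 1, again as for Serpinb1a. All 7 markers were lower in NG-KO than in WT mice and higher in AG-KO than in NG-KO mice at an unadjusted p under 0.05, with median log2 fold changes of -0.997 and 0.79, and none passed at an adjusted p in edgeR. The amount of white matter in each dissection is not given in the sources used here, and its part in the Serpinb1a values was not tested.

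**Figure D3:**
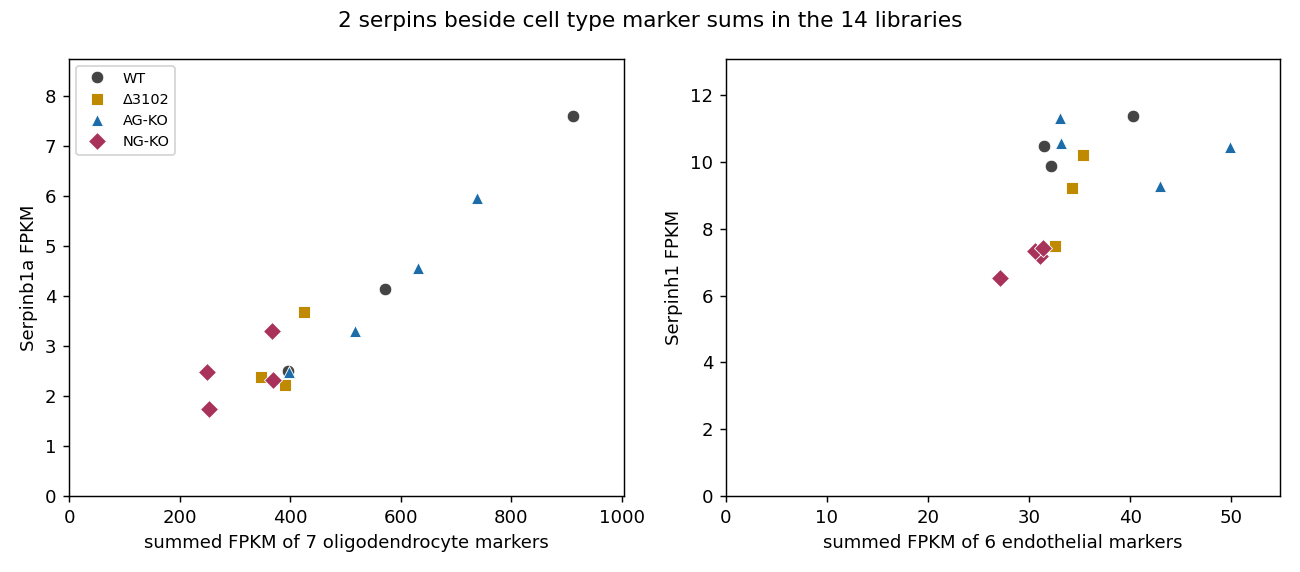
Serpinb1a FPKM (left, y axis) against the summed FPKM of 7 oligodendrocyte markers, and Serpinh1 FPKM (right, y axis) against that of 6 endothelial markers, 1 point per library with colour and shape for genotype and all axes from 0. Serpinb1a is highest in WT replicate 2 (7.61 FPKM), where the marker sum is also highest (912), and the 4 NG-KO points lie lowest for Serpinh1.

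By their level of Alb the 14 libraries fell into 9 with Alb at 41.7 to 189 FPKM and 5 with Alb at or below 2.00 FPKM, so no coefficient over all libraries is given. With log2(FPKM + 0.1) centred within genotype, r of Serpina3n with Alb over 14 libraries was 0.02 and Spearman's rho 0.00 (exact within-genotype permutation p = 0.941 and 0.997). Over the 10 genes r ran from -0.28 for Serpinb9 to 0.59 for Serping1, where rho was 0.62 (exact permutation p = 0.112 for r and 0.0757 for rho). The Benjamini-Hochberg adjusted p over the 10 genes was at least 0.556 for r and at least 0.757 for rho. Without the 2 libraries farthest from the median of Alb, AG-KO replicates 3 and 4, r was -0.12 for Serpina3n and 0.74 for Serping1 (exact permutation p = 0.579 and 0.0463, adjusted 0.723 and 0.463).

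Within the 9 libraries with Alb above 10 FPKM, r with Alb was -0.14 for Serpina3n and rho -0.15 (exact permutation p = 0.703 and 0.708). It was 0.79 for Serpind1, with a rho of 0.82 (exact permutation p = 0.00313 and 0.0108, adjusted 0.0313 and 0.107), and 0.82 for Serping1, with a rho of 0.77 (exact permutation p = 0.0156 and 0.0214, adjusted 0.0782 and 0.107). These values were not centred within genotype, and their p came from permuting libraries across genotypes. In these 9 libraries Alb was at 126 to 189 FPKM in the WT and Δ3102 and at 41.7 to 55.8 FPKM in the AG-KO and NG-KO libraries, so genotype and Alb level cannot be told apart there. Within genotype r of Serpind1 was -0.01 over 14 libraries and 0.18 on log2(FPKM + 1). It was 0.48 without AG-KO replicates 3 and 4, where Alb was listed at 0 (exact within-genotype permutation p = 0.187, adjusted 0.508). The value within genotype thus depended on these libraries and on the scale. The genes nearest to Serpind1 in pattern were Otud5 (r 0.88), Mug2 (0.87) and Slc38a4 (0.85), and those nearest to Serping1 were Tkfc (0.92), the complement gene C8b (0.89) and Stard10 (0.88). Mug2 and C8b are known as genes of liver.

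With Alb as a term in the edgeR fit beside genotype, none of the 10 genes had a slope on Alb at an adjusted p under 0.05 or at an unadjusted p under 0.05. Of all tested genes, 0.559% had a slope at an adjusted and 9.92% at an unadjusted p under 0.05. The log2 change per doubling of Alb + 0.1 FPKM lay between -0.03 for Serpinb9 and 0.04 for Serping1, with 0.00 (SE 0.02) for Serpina3n. Of the 14 other serpins tested, 10 had a slope at an adjusted p under 0.05. They were Serpina1a, Serpina1b, Serpina1c, Serpina1d and Serpina1e (alpha-1 antitrypsins), Serpina3k, Serpina3m, Serpina6 (corticosteroid-binding globulin), Serpinc1 (antithrombin) and Serpinf2 (alpha-2 antiplasmin), with slopes of 0.17 to 1.33. Serpina3k, a relative of Serpina3n of the same cluster of genes, was at 47.4, 37.6 and 33.9 FPKM in WT and at 18.0, 44.1 and 0.0325 FPKM in Δ3102 libraries. It was at 4.28 and 0.506 FPKM in AG-KO replicates 1 and 2 and listed at 0 in replicates 3 and 4, and at 0.590, 17.7, 12.5 and 11.4 FPKM in NG-KO libraries. Its slope was 1.03 (SE 0.10).

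**Figure D4:**
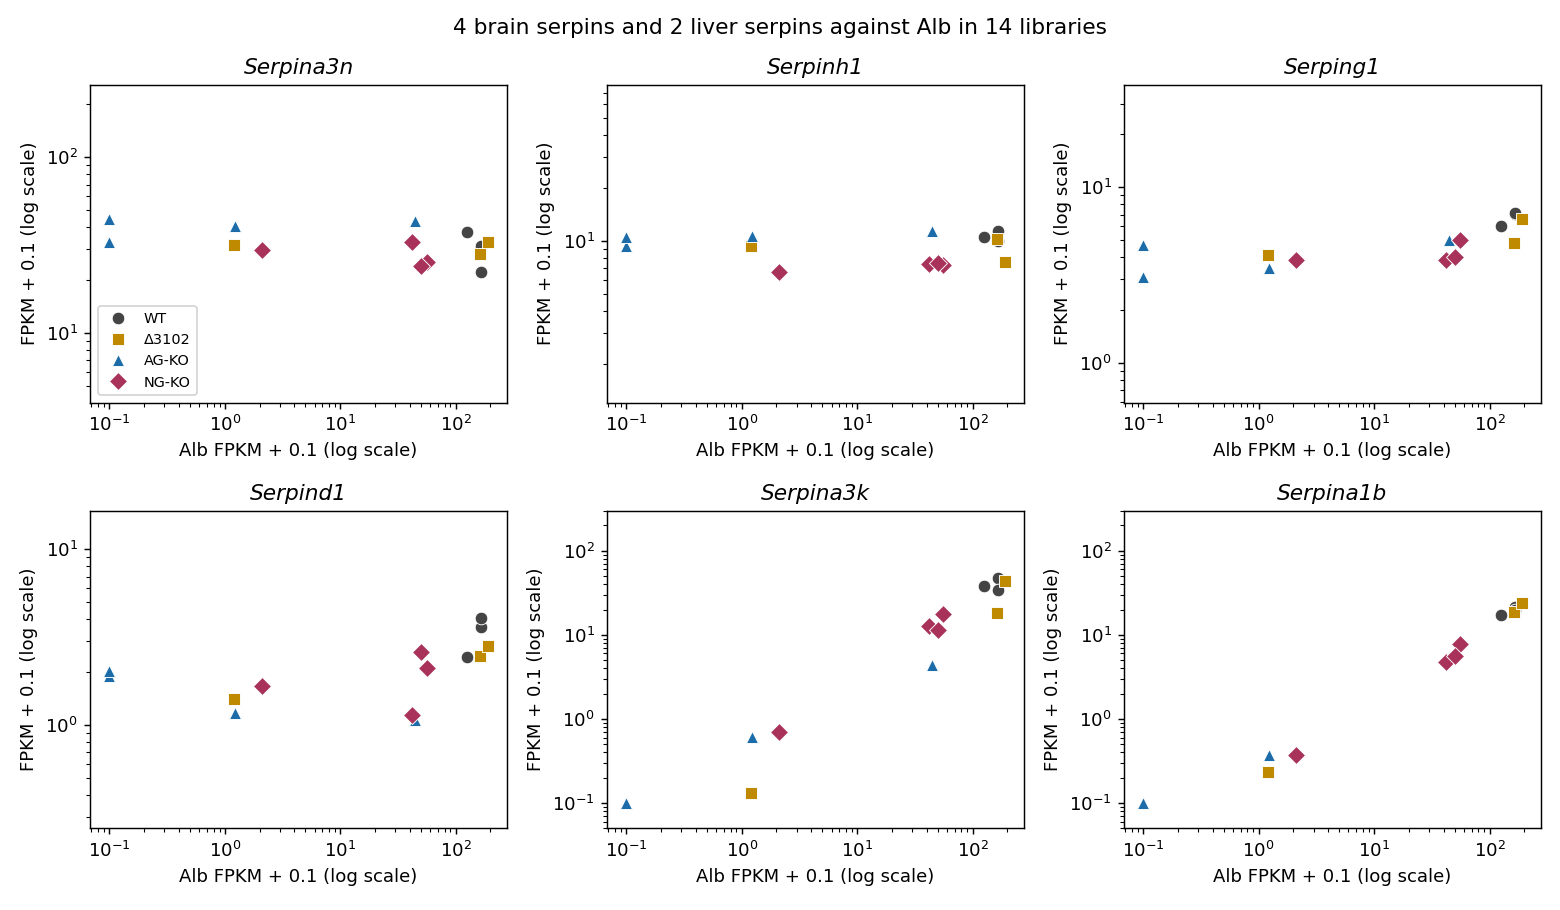
FPKM + 0.1 (y axes, log scale) of Serpina3n, Serpinh1, Serping1, Serpind1 and the liver serpins Serpina3k and Serpina1b against Alb FPKM + 0.1 (x axes, log scale), 1 point per library with colour and shape for genotype. The liver serpins rise along Alb, with slopes of 1.03 and 0.99, while Serpina3n stays between 22.3 and 44.7 FPKM over the whole range of Alb.

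The summed FPKM of the 10 genes varied little over libraries beside that of the other serpins. The 10 genes summed to 109 to 117 FPKM in WT, 103 to 106 FPKM in Δ3102, 111 to 127 FPKM in AG-KO and 99.9 to 105 FPKM in NG-KO libraries. All WT and AG-KO libraries were thus above all Δ3102 and NG-KO libraries in this sum. This split belongs to no comparison planned here and was picked after the values were seen. It was not tested, and how often sums of other genes split so was not counted. The other serpins summed to 144 to 207 FPKM in WT, 6.75 to 237 FPKM in Δ3102, 4.35 to 48.4 FPKM in AG-KO and 5.02 to 75.5 FPKM in NG-KO libraries. The 10 genes thus held 34.5% to 44.8% of the serpin FPKM in WT and 72.4% to 96.2% in AG-KO mice. Of 11 tested genes on a list of 14 liver serpins, Serpind1 among them, 9 were lower in AG-KO than in WT mice at an unadjusted p under 0.05. Over all tested genes 14.4% passed that threshold in either direction. None of the 11 passed at an adjusted p in edgeR, and their median log2 fold change was -3.81 beside -0.01 over all tested genes. Serpina3m and Serpina6 reached 0.5 FPKM in no AG-KO or NG-KO library. They entered the test through WT and Δ3102 libraries, where they were high, so their direction is a description only. Serpina3n alone held 29.7% to 40.2% of the sum of the 10 genes in AG-KO and 23.6% to 31.4% in NG-KO libraries.

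**Figure D5:**
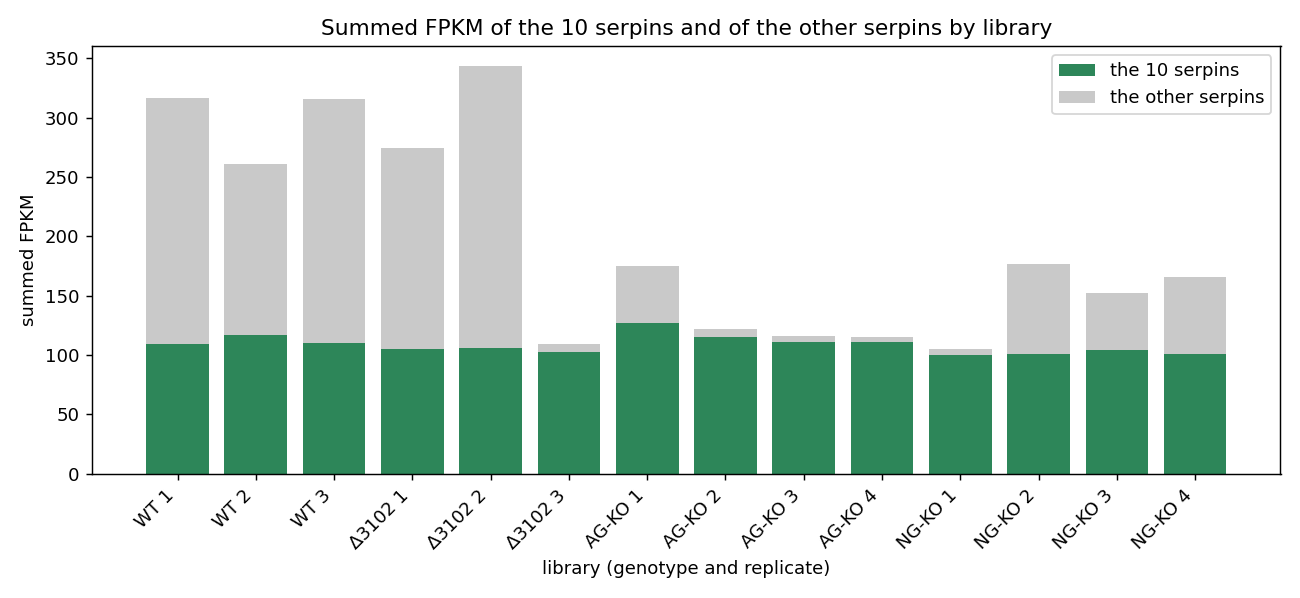
Summed FPKM (y axis, from 0) of the 10 serpins and, stacked above it, of the other serpins, for each of the 14 libraries (x axis). The lower part stays between 99.9 and 127 while the upper part ranges from 4.35 to 237.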

How the data were processed

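Hippocampal poly(A) RNA of 14 libraries (3 WT, 3 Δ3102, 4 AG-KO, 4 NG-KO) was measured with a kit that marks strand. According to the methods and the submitters' processing notes, the authors trimmed reads with cutadapt 1.9, mapped them to GRCm38 with HISAT2 2.0.4 and calculated the deposited FPKM values with StringTie 1.3.4d. The deposited counts are whole numbers per gene that the authors left unnormalized, and the program and strand setting behind them are not given in the sources used here. Genes without counts hold an FPKM of 0.0001 in the table and are written as listed at 0. No pair of the 91 pairs of libraries was identical.

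Genes entered the test where 3 or more libraries reached an FPKM of 0.5, and the counts of these 18059 genes were fitted in 1 model of 14 libraries with edgeR 4.0.16 (TMM, quasi-likelihood test, 1 mean per genotype) in R 4.3.3. Adjusted p is Benjamini-Hochberg over these genes, two-sided, with a threshold of 0.05, and each SE is derived from the fold change and its F statistic (log2 fold change / √F). For Serpina3n alone, mean FPKM was compared by exact permutation, two-sided. For Alb, log2(FPKM + 0.1) was centred within genotype and p came from all 20736 permutations of libraries within genotypes. Within the 9 libraries above 10 FPKM, values were not centred and p came from all 362880 permutations, across genotypes. A coefficient over all libraries had been planned and is not given, since Alb levels fall into clusters; the values within the 9 libraries above 10 FPKM, the edgeR slope on Alb and the log2 scale for Serpina3n were added after the data were seen.

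The 10 genes, the gene lists and the marker lists were chosen with earlier results of these data known. Named from the lists are genes at an adjusted p under 0.05, of which there were none, up to 4 genes with the highest FPKM, and genes behind a small count, which were picked after their values were seen. Nearest patterns are the 5 genes for Serpina3n and 3 for each other serpin with the highest Pearson's r over 14 libraries, without predicted genes. Alternatives were median-ratio scaling, no filter or an FPKM of at least 1, DESeq2 1.42.0, limma 3.58.1 on log2(FPKM + 0.1), + 1 or + 0.01, a fit of the 2 groups compared, Alb as a covariate, leave-one-out fits, a replicate block, and the study's thresholds with p from edgeR. Gene positions and shared 75-base words come from GENCODE vM21, and promoter windows from RefSeq on GRCm38.p6. The list of receptors and cofactors of serpins is not reported here apart from Lrp1. The fits were tested on simulated data. Depth was 44527024 to 62669865 counts per library, and the lowest value among the 10 genes was 119 counts, for Serpind1. Tables, permutations and figures were made with SciPy 1.17.1, NumPy 2.4.6, pandas 2.3.3 and matplotlib 3.10.9 in Python 3.11.15.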

Additional observations from a re-analysis of the deposited data

Results flagged for a closer look

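Serpinf1 in NG-KO mice had 1 library far from the others of its group. NG-KO replicate 3 was at 5.83 FPKM, while the other libraries were at 4.29 to 4.52 FPKM, so that the gap to the nearest library was 0.848 of the range of the 4 libraries, past the 95% critical value of Dixon's test. The gaps of the other 19 groups of 4 libraries among the 10 serpins were below that value, the nearest being 0.828 for Serping1 in NG-KO replicate 2, and chance gives about 1 such group in 20.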

How the results depend on the processing

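Of the 40 log2 fold changes of the 10 serpins, recomputed under 24 alternatives, 908 of 960 values kept direction and stayed above an adjusted p of 0.05. The 7 values that passed are those of Serpinh1, Serpina3n and Serpinf1 given in the report, and 45 values of 14 fold changes took the other sign, all from fold changes of at most 0.20 in size. The cause of these moves was not tested. In AG-KO against WT mice Serpini1 was at -0.0207, -0.0198 and -0.0208, Serpine2 at -0.00751, -0.00732 and -0.00753, and Serpinh1 at -0.0256, -0.0235 and -0.0258 with limma at pseudocounts of 0.1, 1 and 0.01. With Alb as a covariate Serping1 was at 0.177 in AG-KO against NG-KO, Serpinb1a at 0.0787 in AG-KO against WT and Serpinb9 at -0.0690 in NG-KO against WT mice. With the replicate block, Serpini1, Serpinh1 and Serpinb6a were at -0.0945, -0.0113 and 0.0998 in AG-KO against WT and Serpinb9 at -0.0569 in NG-KO against WT mice. Whether same-numbered libraries share more than a number is not given in the sources used here. Their deviations from group means correlated from -0.284 to 0.308. Differently numbered pairs were not set beside them, so these values do not decide it. The block called 1, 1, 5, 9 and 9 genes in Δ3102, AG-KO and NG-KO against WT, AG-KO against NG-KO and any difference, against 2, 4, 13, 20 and 19 without it, and no serpin of the 10.

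With libraries left out in turn, the sign-changing fold changes in Δ3102 against WT mice ranged from -0.156 to 0.210 for Serpina3n, -0.0261 to 0.242 for Serpini1, -0.128 to 0.00416 for Serpine2 and -0.149 to 0.0616 for Serpinb6a. In AG-KO against WT mice the ranges were -0.0974 to 0.171 for Serpini1, -0.0513 to 0.0805 for Serpine2, -0.0337 to 0.0494 for Serpinh1, -0.0452 to 0.243 for Serpinf1, -0.245 to 0.0468 for Serpinb6a and -0.508 to 0.321 for Serpinb1a. They were -0.291 to 0.0761 for Serpina3n and -0.138 to 0.138 for Serpinb9 in NG-KO against WT, and -0.120 to 0.0796 for Serping1 and -0.0493 to 0.242 for Serpinb6a in AG-KO against NG-KO mice. The Serpina3n difference of means ranged from -3.38 to 4.12 FPKM in Δ3102 and from -6.30 to 1.20 FPKM in NG-KO against WT mice. In AG-KO against WT mice it ranged from 6.10 FPKM without WT replicate 3 to 13.6 FPKM without WT replicate 2. The range was 10.9 to 14.9 FPKM in AG-KO against NG-KO mice, where the exact permutation p was 0.0571 each time, the smallest that 3 against 4 libraries allow. Serpins called among the 10 ranged from 0 to 2 in AG-KO against NG-KO mice, with 2 without AG-KO replicate 2, where Serpinh1 and Serpinf1 passed. Genes called ranged from 2 to 10 in Δ3102, 1 to 82 in AG-KO and 8 to 19 in NG-KO against WT, 13 to 297 in AG-KO against NG-KO and 14 to 43 for any difference. The counts of 82, 297 and 43 are those without AG-KO replicate 2. Other counts more than 1.5 times from those of all libraries were 10, 5, 5 and 4 in Δ3102 against WT without WT replicate 1, Δ3102 replicate 1, Δ3102 replicate 3 and NG-KO replicate 4. They were 14, 8 and 1 in AG-KO against WT without WT replicate 1, AG-KO replicate 1 and AG-KO replicate 4. Without Δ3102 replicate 1 they were 8 in NG-KO against WT and 13 in AG-KO against NG-KO mice, and 13 in the latter also without AG-KO replicate 3.

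DESeq2 called 29, 408, 165, 430 and 678 genes in the order used for the block, and among the 10 serpins 1 in NG-KO against WT, 2 in AG-KO against NG-KO and 1 for any difference. A fit of the 2 groups compared called 0, 7 and 13 genes in Δ3102 and AG-KO against WT and AG-KO against NG-KO mice. In Δ3102 against WT mice that fit gave 886 genes at an unadjusted edgeR p under 0.05. Limma with a pseudocount of 1 called 14 genes in AG-KO against WT mice. Alb as a covariate left 1 in AG-KO against WT and 13 in AG-KO against NG-KO mice. A filter of at least 1 FPKM gave 1 serpin in AG-KO against NG-KO mice, and an unadjusted p with a ratio of mean FPKM past 2 or 0.5 gave 1 in AG-KO against WT mice, beside 3.15% of all tested genes. The sign of r with Alb changed for Serpina3n to -0.0275 on log2(FPKM + 1), -0.115 without the 2 farthest libraries and -0.144 within the 9 libraries above 10 FPKM. For Serpind1 it was 0.182, 0.476 and 0.788 in these settings, and within the 9 libraries it was -0.0900 for Serpini1, -0.593 for Serpine2 and 0.258 for Serpinb6a, with 1 serpin, Serpind1, at an adjusted p under 0.05. With 3 or 4 libraries a group, differences of several SEs could also stay above an adjusted p of 0.05. An example is Serpina3n in AG-KO against NG-KO mice (0.55, SE 0.16, edgeR adjusted p = 0.171). A gene that was not called may therefore still differ.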

Other observations

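4 serpins outside the list and without a slope on Alb passed the filter. Serpina3g, a neighbour of Serpina3n with which it shares short stretches of sequence, was at 0.464 to 1.22 FPKM in WT, 0.567 to 1.64 FPKM in Δ3102, 1.05 to 2.54 FPKM in AG-KO and 0.496 to 2.04 FPKM in NG-KO libraries. Its log2 fold change was 1.06 in AG-KO against WT (edgeR adjusted p = 0.388) and 0.54 in AG-KO against NG-KO mice (edgeR adjusted p = 0.666). Serpinb1b, Serpinb6b and Serpinb8, serpins of clade B that act inside cells, had means of 0.578, 0.366 and 0.406 FPKM over the 14 libraries and overlapped between all groups. None of the 4 passed an unadjusted p under 0.05 in any of the 4 comparisons in edgeR.

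Serpinf2, the plasmin inhibitor that liver secretes, had the smallest of the 10 serpin slopes on Alb that passed the test, 0.17 (SE 0.03), and was at 2.47 to 3.65 FPKM in WT, 1.43 to 3.05 FPKM in Δ3102, 0.327 to 1.05 FPKM in AG-KO and 0.423 to 1.04 FPKM in NG-KO libraries. The libraries of both conditional lines were below all WT and all Δ3102 libraries, and Δ3102 replicate 3, with Alb at 1.11 FPKM, had 1.43 FPKM of Serpinf2. Its log2 fold change was -2.33 in AG-KO (edgeR adjusted p = 0.1003) and -1.97 in NG-KO mice (edgeR adjusted p = 0.168) against WT.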
